A study of Mus musculus with 9 samples.

Results

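The 9 genes Prox1, Dsp, C1ql2, C1ql3, Tdo2, Lct, Rfx3, Calb1 and Trpc6 mark mature granule cells of the dentate gyrus. They were taken by gene symbol as a list chosen with earlier results of these data known, and read in ventral hippocampus from 9 mice. All 9 stand among the 40213 genes of every count file, and all 9 are among the 16106 genes with enough counts to be tested. The mice were male, wild-type C57BL/6J animals, 8 weeks old when housed, with 3 in each of 3 groups, and each library came from a separate mouse. Sedentary mice (SED) had no treatment. Stress-susceptible mice (SUS) were restrained for 2 hours a day over 14 days and were not exercised. Susceptible mice given low-intensity exercise (SUS_LE) had the same restraint and then 2 weeks on a treadmill. The labels do not say how susceptibility was scored or when tissue was taken after the last session. No group had exercise without restraint.

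Granule cells are the principal neurons of the dentate gyrus, the input stage of the hippocampus. Their axons, the mossy fibres, end on CA3 pyramidal cells and on hilar mossy cells, and granule cells are among the few neurons added throughout adult life in rodents. Newborn granule cells pass through immature stages before they take on the genes of the mature cell. The ventral part of the hippocampus is known for its links to stress and emotional behaviour.

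The libraries held 14172344 to 15582304 counts. The 9 granule cell genes together took 0.0528% to 0.0649% of them. Levels are given in CPM, counts scaled to a common library size. Fold changes are log2 values from edgeR with their standard error (SE), and p-values are adjusted over all 16106 genes. Choroid plexus RNA differed widely between libraries. Ttr, the thyroid hormone carrier of choroid plexus epithelium, ranged from 27.4 to 6085 CPM and was lowest in SUS 1, SUS_LE 3 and SUS_LE 1. In bulk tissue, fewer granule cells, less RNA per granule cell and RNA of other cells with the same transcripts cannot be told apart.

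Per kilobase of exon, the 9 genes covered a wide range of levels. C1ql3 was highest at a mean of 72.6 CPM per kilobase, above 97.5% of tested genes. Calb1 followed at 24.1, C1ql2 at 16.3, Prox1 at 11.3 and Rfx3 at 8.65 CPM per kilobase. Dsp and Trpc6 lay near the middle of all tested genes, at 3.93 and 3.90 CPM per kilobase. Lct, at 1.87, and Tdo2, at 0.847 CPM per kilobase, were the lowest, and Tdo2 stood above only 16.4% of tested genes. Neighbours in this order overlapped between libraries for C1ql2 and Prox1, for Prox1 and Rfx3, and for Dsp and Trpc6. The other neighbours did not overlap.

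**Figure D1:**
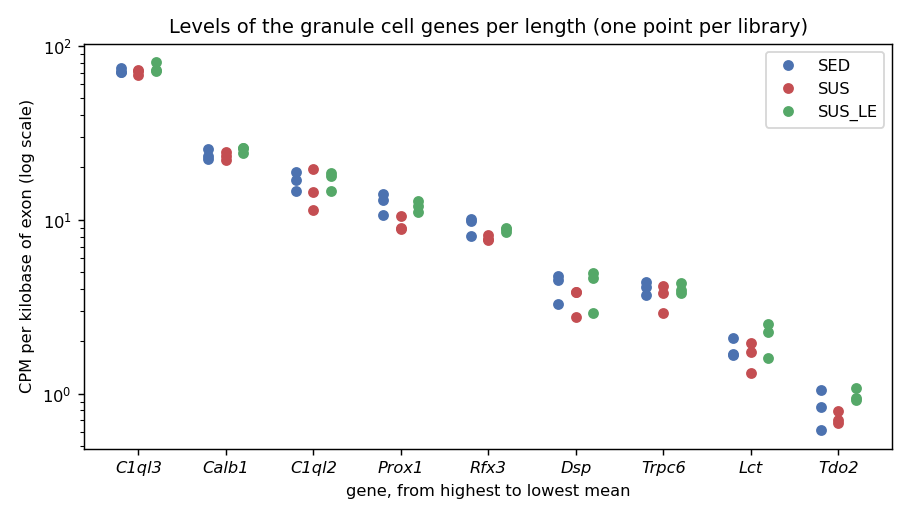
CPM per kilobase of exon (log axis) of each granule cell gene, ordered by its mean, with 1 point per library and colour by group. C1ql3 lies at the top with a mean of 72.6 and Tdo2 at the bottom with 0.847 CPM per kilobase, and within a gene the groups lie close together.

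Of the 2 transcription factors, Prox1 is the homeobox factor that granule cells need to take on and keep their identity. Prox1 stood at 108, 88.9 and 118 CPM across SED 1 to 3. It stood at 87.9, 75.5 and 74.3 CPM across SUS 1 to 3, and at 107, 99.9 and 92.9 CPM across SUS_LE 1 to 3. All 3 SUS libraries lay below all 6 others, although SUS 1 was only just below SED 2. Of all genes, 8.56% had SUS below SED in this way and 8.61% had SUS below SUS_LE. The share with both was not counted. The means were 105 ± 14.97 CPM in SED, 79.2 ± 7.54 in SUS and 100.1 ± 7.23 in SUS_LE (SD, n = 3). The antisense gene Prox1os, which overlaps 1.59% of Prox1 exon bases, had 16 to 33 counts per library against 1084 to 1750 for Prox1. The strand setting of the counting is not given in the sources used here.

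Rfx3 is a winged-helix factor of the RFX family, known for switching on genes of cilia. Rfx3 was at 109, 89.2 and 111 CPM across SED 1 to 3, at 83.9, 85.8 and 89.8 CPM across SUS 1 to 3, and at 94.0, 99.1 and 97.8 CPM across SUS_LE 1 to 3. The SUS libraries lay below every SUS_LE library, while SUS 3 and SED 2 overlapped. The group means were 103 ± 11.8, 86.5 ± 3.02 and 97.0 ± 2.67 CPM in SED, SUS and SUS_LE (SD, n = 3). RFX proteins bind the half-site GTTGCC, and Rfx3 carries it near its own start.
Rfx3: atagcaaccGTTGCCttgtgaatc
The capitals mark the half-site, which begins 32 bases after the start on the minus strand (chr19:28011121-28011144, GRCm38.p6, RefSeq). Among 8 of the granule cell genes matched to RefSeq windows of 300 bases around the start (250 before to 50 after), Rfx3 was the only one with this half-site or its reverse complement GGCAAC. Across all 32851 windows the share was 12.5%. A match of letters is a description of sequence and does not show binding.

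C1ql2 and C1ql3 encode secreted proteins of the C1q family that organise synapses. C1ql2 is released by mossy fibres, where it links presynaptic neurexin 3 with postsynaptic kainate receptors, and C1ql3 binds the adhesion receptor Adgrb3. C1ql2 had 33.8, 29.2 and 37.8 CPM across SED 1 to 3, 38.9, 22.8 and 28.7 CPM across SUS 1 to 3, and 35.6, 37.2 and 29.4 CPM across SUS_LE 1 to 3. The highest and the lowest of the 9 values were both in SUS, and the groups overlapped. C1ql3 had 190.1, 179 and 178 CPM across SED 1 to 3, 173, 181 and 184 CPM across SUS 1 to 3, and 185, 182 and 204 CPM across SUS_LE 1 to 3. C1ql3 was among the steadiest of the 9 genes, with a highest library 1.18 times the lowest, against 1.71 times for C1ql2. In GENCODE M21 an unconfirmed antisense model, Gm37811, overlaps 61% of C1ql3 exon bases, so C1ql3 counts are uncertain where reads were not assigned by strand.

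Calb1 and Trpc6 both bear on calcium. Calb1 encodes calbindin, a cytosolic calcium buffer that CA1 pyramidal cells and some interneurons also make. Calb1 was at 124, 108 and 113 CPM across SED 1 to 3, at 113, 107 and 118 CPM across SUS 1 to 3, and at 118, 125 and 125 CPM across SUS_LE 1 to 3. Its groups overlapped and its highest library was 1.17 times its lowest, the smallest range of the 9 genes. Trpc6 encodes a cation channel of the plasma membrane that lets calcium in. Trpc6 was at 20.7, 18.8 and 22.2 CPM across SED 1 to 3, at 21.1, 19.2 and 14.7 CPM across SUS 1 to 3, and at 22.0, 19.2 and 20.0 CPM across SUS_LE 1 to 3. SUS 3 was the lowest library for Trpc6, and the other 8 libraries, at 18.8 to 22.2 CPM, were mixed across the groups.

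Trpc6 was the only one of the 8 matched genes with a CREB half-site, TGACG or its reverse complement CGTCA, in its RefSeq window. CREB is a factor that answers calcium and cyclic AMP in active neurons.
Trpc6: tggggatcgTGACGgaggacgtg
The capitals mark the half-site, 103 bases before the start on the plus strand (chr9:8544030-8544052, GRCm38.p6), and 20.8% of all windows hold one. The glucocorticoid receptor half-site TGTTCT, or AGAACA on the other strand, was in none of the windows of the 8 genes and in 19% of all windows. Its absence says only that these letters are not in these windows.

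Dsp, Lct and Tdo2 are the least neuronal of the markers by name. Dsp encodes desmoplakin, which ties desmosomes to intermediate filaments in epithelia. Dsp stood at 45.6, 31.6 and 43.2 CPM across SED 1 to 3, at 36.9, 26.8 and 37.0 CPM across SUS 1 to 3, and at 47.8, 44.7 and 28.2 CPM across SUS_LE 1 to 3. Each group held 1 library well below its other 2, namely SED 2, SUS 2 and SUS_LE 3, and the groups overlapped. Within groups Dsp varied by 17.5% to 26.2% (SD over mean), against 4.08% to 4.53% from counting error alone at its 386 to 698 counts.

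Lct encodes lactase, the enzyme that splits milk sugar in the intestine. Lct was at 10.7, 10.9 and 13.3 CPM across SED 1 to 3, at 12.5, 8.40 and 11.2 CPM across SUS 1 to 3, and at 16.1, 14.6 and 10.2 CPM across SUS_LE 1 to 3. Lct had the widest range of the 9 genes, 1.92 times from lowest to highest, with overlapping groups. Tdo2 encodes tryptophan dioxygenase, which opens the kynurenine path of tryptophan breakdown. Tdo2 was at 4.07, 2.38 and 3.24 CPM across SED 1 to 3, at 2.75, 2.64 and 3.08 CPM across SUS 1 to 3, and at 4.17, 3.57 and 3.68 CPM across SUS_LE 1 to 3. All 3 SUS_LE libraries lay above all 3 SUS libraries, and the SED libraries spread across both. Tdo2 rests on 34 to 61 counts per library, and the exact 95% Poisson interval, for counting error only, is 23.5 to 47.5 around 34 counts and 46.7 to 78.4 around 61.

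**Figure D2:**
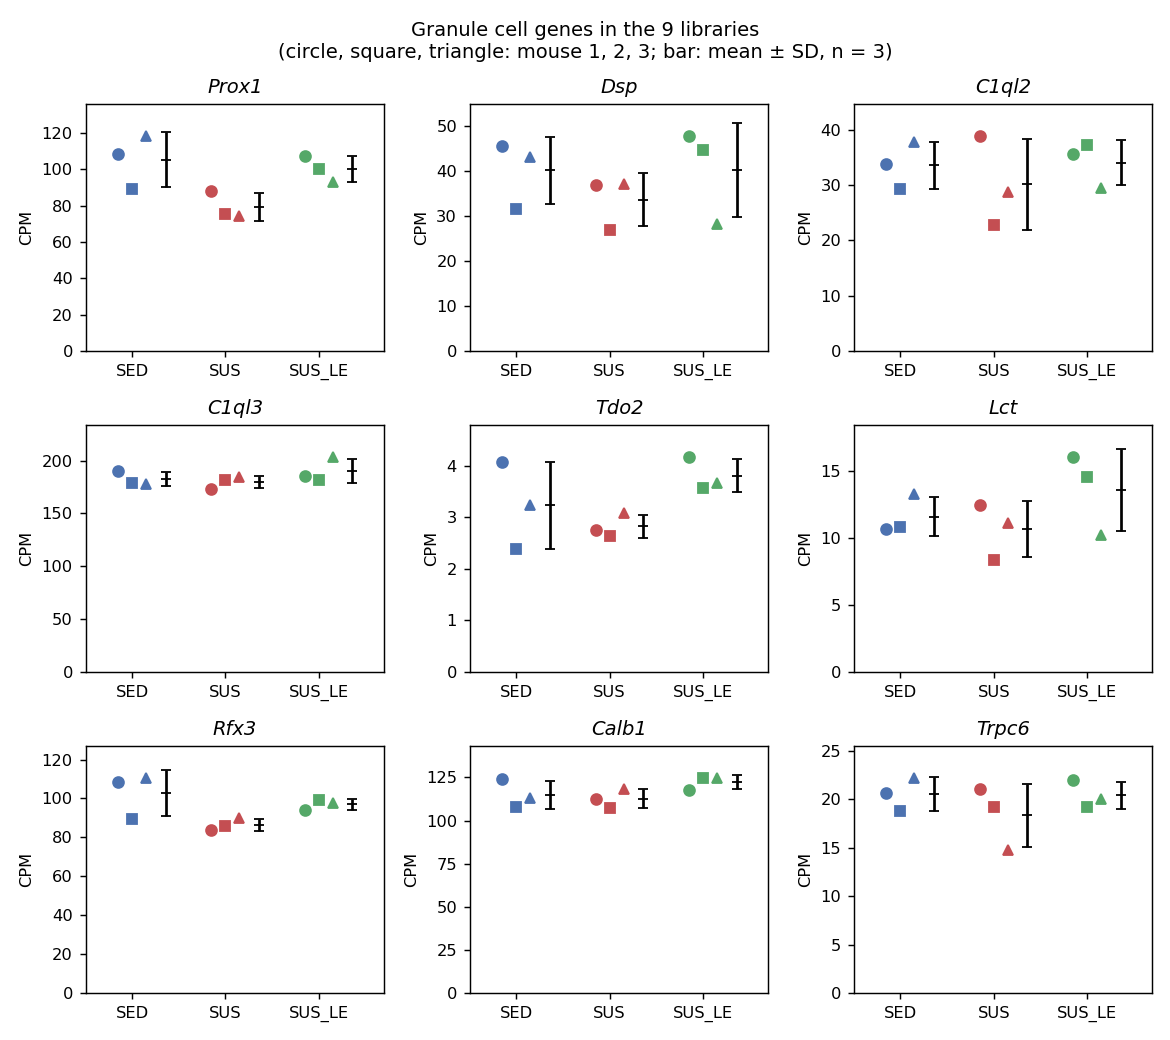
CPM of each granule cell gene in the 9 libraries, grouped as SED, SUS and SUS_LE, with the mean and SD of each group (n = 3) as bars and every axis starting at 0. Prox1 in SUS lies at 74.3 to 87.9 CPM, below all libraries of the other groups, while C1ql3 and Calb1 are nearly level.

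The comparison of SUS with SED asks what differed in susceptible mice after restraint. All 9 granule cell genes had a lower mean in SUS, where 50.1% of all tested genes did. None passed the adjusted threshold of 0.05 in edgeR, which called 0% of all genes. Prox1 was lowest relative to SED, at a log2 fold change of −0.41 (SE 0.11, edgeR adjusted p = 0.178), and Rfx3 was at −0.25 (SE 0.07, edgeR adjusted p = 0.165). These 2 genes were the ones under an unadjusted 0.05 in the lower direction, against 6.26% of all genes. Prox1 was the only one of the 9 whose SUS libraries all lay below its SED libraries, against 8.56% of all genes.

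The other fold changes of SUS against SED had larger errors relative to their size. Dsp was at −0.26 (SE 0.26), Tdo2 at −0.19 (SE 0.22), Trpc6 at −0.17 (SE 0.12), C1ql2 at −0.16 (SE 0.20) and Lct at −0.12 (SE 0.18). Their edgeR adjusted p ran from 0.573 to 0.824. Calb1, at −0.03 (SE 0.06), and C1ql3, at −0.02 (SE 0.05), lay close to 0 with small errors. The median of the 9 was −0.17, against −0.00039 over all tested genes. The 9 genes were chosen with earlier results of these data known. They are read from the same 9 mice, so their common direction is not 9 separate observations. It held for 6 of 9 genes without SED 1 and for 6 of 9 without SUS 2.

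The call on Prox1 depended on the tool. DESeq2, which called 1.71% of the 4865 genes it gave an adjusted p as lower, called Prox1 (log2 fold change −0.41, DESeq2 adjusted p = 0.00563) and Rfx3 (−0.25, DESeq2 adjusted p = 0.0472). Without its independent filtering, Prox1 remained past the threshold in DESeq2 (adjusted p = 0.0162) and Rfx3 did not (adjusted p = 0.136). With each library left out of DESeq2 in turn, Prox1 passed in 6 of the 7 fits that gave it an adjusted p, and missed without SED 1 (DESeq2 adjusted p = 0.0954). Rfx3 passed in 2 of 7 such fits. With each library left out of edgeR, Prox1 passed only without SED 2, its lowest SED library (−0.52, edgeR adjusted p = 0.0467). The edgeR adjusted p of Prox1 reached 0.488 in the other such fits. With trends over GC content and length removed, Prox1 was at −0.34 (edgeR adjusted p = 0.46) and Rfx3 at −0.14 (edgeR adjusted p = 0.549).

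The comparison of SUS_LE with SUS asks what differed when restrained mice were then exercised. It shares the SUS libraries with the comparison above, so a low value in SUS enters both. All 9 genes had a higher mean in SUS_LE, as did 50.3% of all genes, and none passed the adjusted threshold in edgeR, which again called 0% of all genes. Prox1 was at 0.34 (SE 0.11, edgeR adjusted p = 0.211) and Rfx3 at 0.17 (SE 0.07, edgeR adjusted p = 0.309). Tdo2 had the greatest fold change, 0.43, with an SE of 0.22 (edgeR adjusted p = 0.394), and Lct followed at 0.35 (SE 0.18, edgeR adjusted p = 0.410). Prox1 and Rfx3 were under an unadjusted 0.05 in the higher direction, against 7.2% of all genes.

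Dsp was at 0.26 (SE 0.25), C1ql2 at 0.18 (SE 0.20), Trpc6 at 0.15 (SE 0.12), Calb1 at 0.12 (SE 0.06) and C1ql3 at 0.08 (SE 0.05) in SUS_LE against SUS. Prox1, Tdo2 and Rfx3 had all SUS_LE libraries above all SUS libraries, which 8.61% of all genes did. The median of the 9 was 0.18, against 0.0011 over all genes. DESeq2, which called 1.95% of 5489 genes higher, called Prox1 (0.34, DESeq2 adjusted p = 0.0292), and lost it without independent filtering (adjusted p = 0.0746). With each library left out in turn, Prox1 passed in 4 of the 8 DESeq2 fits that gave it an adjusted p, and missed without SED 1, SUS 2, SUS 3 or SUS_LE 1. With trends over GC content and length removed, all 9 stayed higher, with a median of 0.27, and none passed in edgeR. Values fell for Rfx3 (0.06, edgeR adjusted p = 0.803), Calb1 (0.0065, edgeR adjusted p = 0.985), Prox1 (0.28), Tdo2 (0.34) and Trpc6 (0.11). They rose for C1ql2 (0.32), Lct (0.38), Dsp (0.27) and C1ql3 (0.12). Single libraries set several of the smaller values, since without SUS 2 C1ql2 was at 0.0078 and Dsp at 0.12, and without SUS 3 Trpc6 was at 0.013.

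The comparison of SUS_LE with SED asks how restrained and exercised mice stood beside untreated ones. The means were higher in SUS_LE for 6 of the 9 genes, against 52.9% of all genes, and edgeR called 0% of all genes. None of the 9 was under an unadjusted 0.05, where 6.64% of all genes were, and none had groups that did not overlap, where 16.2% of all genes did. Lct and Tdo2 were both at 0.23, Calb1 at 0.09 and C1ql3 at 0.06. Prox1, at −0.07, and Rfx3, at −0.09, were slightly lower than in SED. The median of the 9 was 0.02, against 0.0085 over all genes, and turned to −0.070 without SED 2. With a library left out, the number of the 9 that were higher ran from 4 (without SED 2) to 8 (without SED 3). In the edgeR test for any difference among the 3 groups, Rfx3 (adjusted p = 0.215) and Prox1 (adjusted p = 0.216) had the smallest values of the 9 and no gene was called, with 13.5% of all genes under an unadjusted 0.05.

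**Figure D3:**
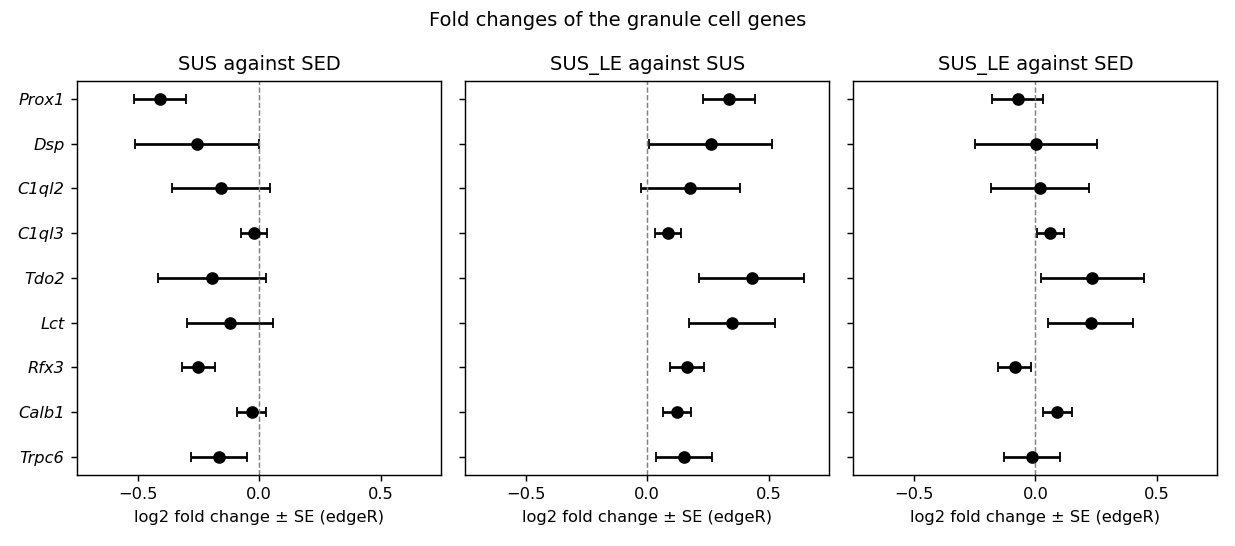
log2 fold change with its SE (bars) from edgeR for each granule cell gene in the 3 comparisons, with the dashed line at 0. All points of SUS against SED lie below 0 and all of SUS_LE against SUS above it, with Prox1 at −0.41 and 0.34, and both panels use the same SUS libraries.

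Libraries of 1 group differed among themselves by as much as the groups did for most of these genes. The summed level of the 9 genes was 646, 557 and 640.1 CPM across SED 1 to 3, 569, 529 and 561 CPM across SUS 1 to 3, and 630.0, 625 and 611 CPM across SUS_LE 1 to 3. SED 2 lay below SUS 1 and SUS 3 in this sum, so SED and SUS overlapped. All SUS_LE libraries lay above all SUS libraries in the sum, which the most abundant genes dominate. By mean centred log2 CPM, which weighs each gene alike, SUS_LE 3 (−0.028) lay below SUS 1 (−0.021). SUS 2 was the lowest library for Dsp, C1ql2, Lct and Calb1. SUS 3 was the lowest for Prox1 and Trpc6, SUS 1 for C1ql3 and Rfx3, and SED 2 for Tdo2. The biological coefficient of variation in edgeR ran from 5.07% for C1ql3 to 21.1% for Dsp, with a median over all genes of 9.54%.

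**Figure D4:**
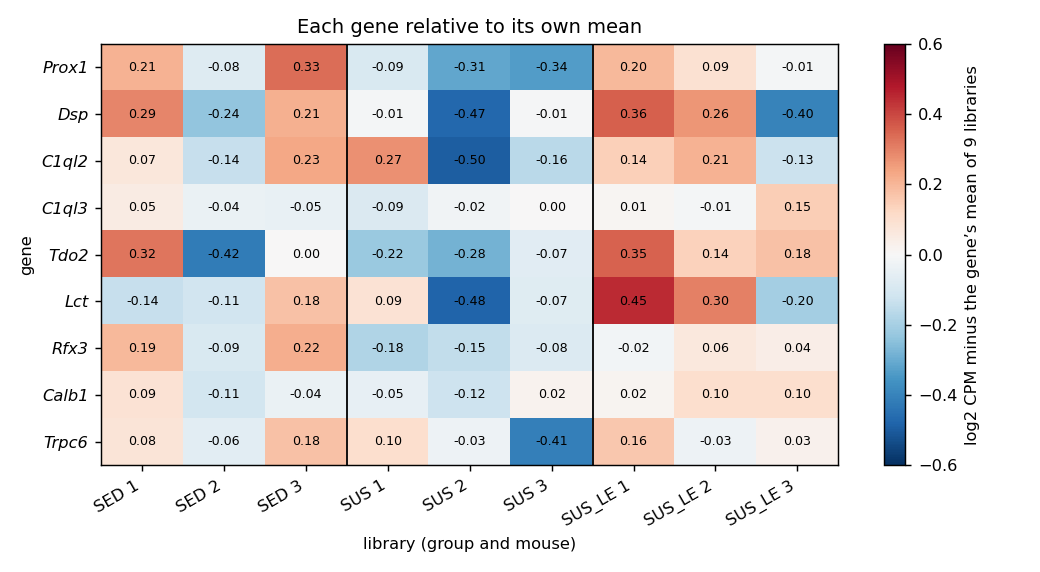
log2 CPM of each granule cell gene in each library minus that gene's mean over the 9 libraries, with colour from blue (below the mean) to red (above). SUS 2 is at or below the mean for all 9 genes, reaching −0.50 for C1ql2, and SED 2 is also below the mean throughout.

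With group means removed, the genes did not all vary together. Over the 9 libraries, 13 of the 36 pairs had a Pearson r above 0.5 and 7 had one below 0. C1ql2 and Lct were closest at 0.85, then Dsp and Lct at 0.84, Prox1 and C1ql2 at 0.77, and Dsp and C1ql2 at 0.76. C1ql3 varied against Lct (−0.75) and against C1ql2 (−0.56), although both C1q genes are markers of the same cell. These values share libraries and scaling and are descriptions of 9 points with no test. Among 15091 other genes, those most like Prox1 were Noc3l, Stxbp6 and Filip1, each at 0.97 over the 9 libraries, and Stxbp6 is itself known from granule cells. For Rfx3 the nearest was Gm14403 at 0.99, for Calb1 the activity-regulated protocadherin Pcdh8 at 0.97, for C1ql2 Eif2b4 at 0.99 and for Tdo2 9530062K07Rik at 0.98. Dsp was most like Pitpnb at 0.997, Lct like Kif22 at 0.98, C1ql3 like B430319G15Rik at 0.98 and Trpc6 like Zfp653 at 0.98. With so many genes and only 9 libraries, values this high are found for every member.

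Another 26 genes known from granule cells or mossy fibres, also chosen with earlier results known, were read as companions. None passed in edgeR in any comparison. In SUS against SED 19 of the 26 were lower and 7 higher, with a median of −0.10. Dock10, a guanine nucleotide exchange factor, stood at 83.1, 73.8 and 75.2 CPM across SED 1 to 3, at 66.8, 66.4 and 62.4 CPM across SUS 1 to 3, and at 82.2, 81.7 and 82.6 CPM across SUS_LE 1 to 3. All SUS libraries lay below all others, as for Prox1, but Dock10 was named for its small p, which favours such an order. Its fold change was −0.25 (SE 0.06, edgeR adjusted p = 0.134) in SUS against SED and 0.33 (SE 0.06, edgeR adjusted p = 0.0728) in SUS_LE against SUS. DESeq2 called Dock10 in both (adjusted p = 0.0330 and 0.00167), and without independent filtering only the second passed (adjusted p = 0.0935 and 0.00380). With a library left out of DESeq2, Dock10 passed in 3 of 7 fits in the first and in 8 of 8 in the second. In edgeR it was past the threshold in the second without SUS 1 (adjusted p = 0.0194) or without SUS 2 (adjusted p = 0.0311). With trends over GC content and length removed, Dock10 was at −0.14 (edgeR adjusted p = 0.477) in the first and at 0.26 (edgeR adjusted p = 0.249) in the second.

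Other companions had other patterns. Gsg1l, an auxiliary subunit of AMPA receptors, was at 18.6, 26.1 and 20.1 CPM across SED 1 to 3, at 33.6, 35.4 and 28.3 CPM across SUS 1 to 3, and at 22.4, 20.0 and 35.0 CPM across SUS_LE 1 to 3. Its SUS libraries lay above its SED libraries, at 0.59 (SE 0.24, edgeR adjusted p = 0.367). Synpr, synaptoporin of mossy fibre vesicles, was 75.1 ± 5.43 CPM in SUS and 86.7 ± 1.54 CPM in SUS_LE (SD, n = 3), at 0.21 (SE 0.06, edgeR adjusted p = 0.145), and edgeR called it without SUS 1 (0.27, adjusted p = 0.0318). In SUS_LE against SUS 17 of the 26 companions were higher, with a median of 0.03, and in SUS_LE against SED 14 were higher, with a median of 0.01. There Zbtb20, a zinc finger factor of hippocampal neurons, was at −0.20 (SE 0.08, edgeR adjusted p = 0.681) and Plk5, a polo-like kinase, at −0.37 (SE 0.20, edgeR adjusted p = 0.776). Plk5 rests on 46 to 86 counts per library.

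Of 25 receptors, ligands, relatives and pathway partners of the 9 proteins, 20 had enough counts to be tested, and none passed in edgeR. C1ql4 and the kynurenine path genes Ido1, Kmo, Kynu and Haao did not reach the filter. In SUS against SED 10 were higher and 10 lower, in SUS_LE against SUS 8 higher and 12 lower, and in SUS_LE against SED 5 higher and 15 lower. Rfx7, an RFX relative of Rfx3, was at −0.27 (SE 0.07, edgeR adjusted p = 0.165), with 43.2, 48.1 and 46.0 CPM in SED, 34.6, 40.9 and 38.6 CPM in SUS, and 45.8, 42.8 and 47.1 CPM in SUS_LE. Its SUS libraries lay below all others, but Rfx7 too was named for its small p. The fold change of Rfx7 in SUS_LE against SUS was 0.25 (SE 0.07, edgeR adjusted p = 0.161). Rfx2, another relative, was at −0.70 in SUS_LE against SED (SE 0.23, edgeR adjusted p = 0.570), on 34 to 77 counts per library. Jup encodes plakoglobin, which binds desmoplakin, and stood at 0.18 (SE 0.08, edgeR adjusted p = 0.339) in SUS against SED and −0.25 (SE 0.08, edgeR adjusted p = 0.187) in SUS_LE against SUS, opposite in sign to Dsp. Pkp2, plakophilin of the desmosome, was named only after its values were seen, so it adds no support for Dsp. Pkp2 was lower in SUS against SED with an unadjusted edgeR p under 0.05, as were 6.26% of all genes. Of the 20 partners, 1 was higher and 2 lower at that level in SUS against SED. In SUS_LE against SUS 3 were higher (Adgrb3, Grik2 and Rfx7) and 2 lower (Rfx2 and Jup).

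Genes of other cells in the tissue also differed in their means between the groups. In SUS against SED all 6 CA3 pyramidal genes were lower (median −0.23), 5 of 6 CA1 pyramidal genes were higher (median 0.11) and 8 of 9 interneuron genes were higher (median 0.15), and none passed in edgeR. CA1 genes summed to 412 to 466 CPM in SED and 467 to 522 CPM in SUS. CA3 genes summed to 189 to 212 CPM in SED and 171 to 185 CPM in SUS. For both sums the SUS libraries lay to 1 side of SED, for CA1 only just. By mean centred log2 CPM this held for CA3, while for CA1 SED 2 (0.030) lay above SUS 3 (0.0043). Interneuron genes summed to 754 to 789.7 CPM in SED, 813 to 835 CPM in SUS and 794 to 842 CPM in SUS_LE. In SUS_LE the CA1 sum ran from 417 to 514 CPM and the CA3 sum from 182 to 219 CPM, and SUS_LE 3 was the highest for CA1 and the lowest for CA3. Among glial and vessel genes, several sums had their lowest values in SUS. Astrocyte genes summed to 5268 to 5553 CPM in SED, 4886 to 5073 CPM in SUS and 5354 to 5583 CPM in SUS_LE, with 4 of 7 lower in SUS against SED and 6 of 7 higher in SUS_LE against SUS. Endothelial genes summed to 275 to 288 CPM in SED, 248 to 272 CPM in SUS and 298 to 311 CPM in SUS_LE, with 6 of 7 lower in the first comparison and 6 of 7 higher in the second. For both sums every SUS library lay below every other library. By mean centred log2 CPM this held for endothelial genes. For astrocyte genes SUS 1 (−0.0054) then lay above SED 1 (−0.069) and SUS_LE 2 (−0.0086). Oligodendrocyte genes summed to 2953 to 3159 CPM in SED, 2491 to 2848 CPM in SUS and 2549 to 3161 CPM in SUS_LE, with 7 of 7 lower in the first comparison and 6 of 7 higher in the second. None of these genes passed in edgeR, although 5 oligodendrocyte genes in the first comparison and 5 endothelial genes in the second were under an unadjusted 0.05.

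Mossy cell genes, whose cells receive mossy fibre input, summed to 82.7 to 83.7 CPM in SED, 77.7 to 87.4 CPM in SUS and 86.6 to 88.2 CPM in SUS_LE. CA2 genes summed to 254 to 276 CPM in SED, 278 to 304 CPM in SUS and 273 to 295 CPM in SUS_LE. Genes of neighbouring striatum, amygdala, cortex and thalamus summed to 287 to 301 CPM, 268 to 298 CPM and 277 to 295 CPM in SED, SUS and SUS_LE. Ependymal genes summed to 41.2 to 56.5 CPM, 19.5 to 59.5 CPM and 21.2 to 38.4 CPM, and meningeal genes to 328 to 380.4 CPM, 194 to 498 CPM and 214 to 286 CPM, in the same order. None of these 5 lists held a gene that passed in edgeR. The first gene of each list was counted in every library, with Drd1 of striatum at 31 to 82 counts and Mbp of myelin at 14280 to 18515 counts. The part of the other cells' differences in the granule cell values was not tested.

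Of 12 genes of newborn granule cells and progenitors, 10 were tested, with 5 higher and 5 lower in SUS against SED and 9 lower in SUS_LE against SUS. None passed in edgeR. Dcx, doublecortin of newborn neurons, had 276 to 380 counts across the 9 libraries. All 12 choroid plexus genes had a lower mean in all 3 comparisons and none passed in edgeR. They summed to 3303 to 4844 CPM in SED, 58.5 to 6731 CPM in SUS and 97.3 to 1680.0 CPM in SUS_LE. Without the 3 libraries lowest in Ttr, which leaves 2 SUS libraries and 3 SED libraries, 8 of the 9 granule cell genes were lower in SUS against SED, with a median of −0.25. The same step leaves SUS_LE 2 as the only exercised library, so it gives no group value for SUS_LE.

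**Figure D5:**
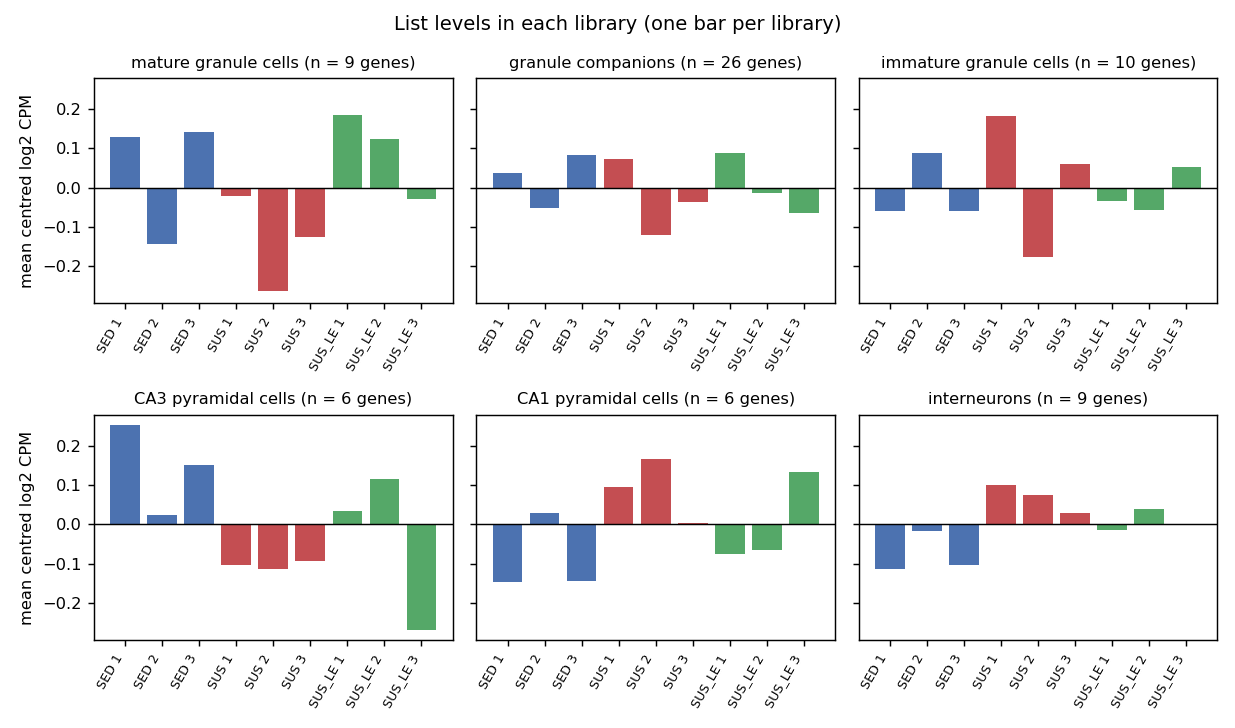
Mean log2 CPM of the genes of each list, centred on the 9 libraries, in every library, for mature granule cells, their companions and lists of other cells, with the number of genes in each panel title. The granule cell mean is lowest in SUS 2 at −0.26 and highest in SUS_LE 1 at 0.19.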

How the data were processed

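Total RNA of ventral hippocampus from 9 mice was sequenced, and the labels' protocols name the CORALL RNA-seq V2 kit. The deposited files hold raw counts per gene symbol, made by the authors, 1 column per library, and 0 such columns were left unused. The submitters' processing notes name fastp, STAR, Salmon and GRCm39, without versions. The annotation, strand setting, use of molecular identifiers and any rounding are not given in the sources used here. Headers number the exercised libraries differently from the labels, and the labels' numbers were used. The chi-square of counts between libraries of 1 group, over its degrees of freedom, was 2.82 to 15.8, so none was taken for a duplicate.

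The counts were fitted in R 4.3.3 with edgeR 4.0.16 (expression filter by group, TMM factors, robust quasi-likelihood test, Benjamini-Hochberg adjustment over 16106 genes holding 99.9% of counts, threshold 0.05), all 9 libraries together with group as the only term. The common biological coefficient of variation was 8.45%. Log2 CPM used a prior count of 2. The fit was tested on simulated data. P-values weigh group differences against the spread between separate mice, estimated over the 3 groups and drawn toward that of other genes. Alternatives used DESeq2 1.42.0, limma 3.58.1 and the settings of the closing section. Exon lengths and GC content came from GENCODE M21 (GRCm38), joined on gene symbols (91.3% of those tested, and all 9 granule cell genes). Start windows came from RefSeq.

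The 9 genes and all lists were chosen with earlier results of these data known. All 9 are always named. Of the companions and partners, the 4 genes with the smallest p in each comparison and a mean log2 CPM above 0 were named, of each list of other cells its sum and counts and, for some, its first gene, and for each of the 9 genes those most like it by Pearson r after removing group means.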

Additional observations from a re-analysis of the deposited data

How the results depend on the processing

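With 3 mice a group, edgeR called no gene in any comparison, and the number of calls depended strongly on the setting. In SUS against SED DESeq2 called 163 genes, DESeq2 without independent filtering 53, edgeR without a filter on low counts 297, and edgeR without the 3 libraries lowest in Ttr 14. In SUS_LE against SUS these settings called 180, 73, 430 and 20, and in SUS_LE against SED 16, 16, 218 and 16. For any difference among the groups they called 193, 114, 695 and 30. Leaving out the lowest-Ttr libraries leaves 2 SUS libraries and only SUS_LE 2, so every value of that setting that involves SUS_LE rests on 1 library assumed to vary like the other groups, and shows nothing about stability. Leaving out 1 library gave 0 to 74 calls in SUS against SED (74 without SUS 3), 0 to 184 in SUS_LE against SUS (184 without SUS 2), 0 to 69 in SUS_LE against SED (69 without SUS 1) and 0 to 86 for any difference (86 without SUS 3). A choroid plexus score as a covariate gave 424 calls in SUS_LE against SUS, 2 in SUS_LE against SED and 195 for any difference. Fits of the 2 compared groups alone gave 1 call in SUS_LE against SUS and 239 in SUS_LE against SED, and fits without the robust step 1 in each. The Ttr, covariate, GC and length, DESeq2 filtering and DESeq2 leave-one-out settings were chosen after seeing the data.

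In SUS against SED DESeq2 gave an adjusted p to only 4 of the 9 granule cell genes and called 2, against 163 of 4865 genes. Without a filter 2 of the 9 were called, against 297 of 26992 genes. DESeq2 without independent filtering called 1 of the 9, against 53 of 16100 genes, and 0 to 1 were called with a library left out. In SUS_LE against SUS DESeq2 gave an adjusted p to 5 of the 9 and called 1, against 180 of 5489 genes. Without a filter 1 of the 9 was called there, against 430 of 26992 genes. For any difference 1 was called by DESeq2, 2 without a filter and 1 by DESeq2 without independent filtering. Without a filter, Prox1 had an edgeR adjusted p of 8.25e-07 in SUS against SED and 0.000139 in SUS_LE against SUS. Its fold changes, −0.41 and 0.34, were those of the main fit, and only the SE fell, from 0.11 to 0.06 in both. That fit took 26992 genes in place of 16106, so these p-values do not reflect a larger difference in Prox1. The cause of the smaller SE was not tested. The median of the 9 in SUS_LE against SUS was 0.32 without the lowest-Ttr libraries, where SUS_LE is 1 library, and 0.15 to 0.33 with a library left out. No label ties mice of the same replicate number. Deviations of same-numbered libraries correlated at −0.12 to 0.18, over 0.1 in 2 of 9 pairs. Of 9 libraries, 5 correlated best with a library of their own number. With so few libraries, these values cannot decide whether the mice were paired. With the replicate block, 1 gene was called in SUS against SED, 1 in SUS_LE against SUS and 1 for any difference, and Prox1 was at −0.41 in SUS against SED (edgeR adjusted p = 0.156).

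Directions turned for small fold changes. In SUS against SED, leaving out 1 library gave −0.38 to 0.0057 for C1ql2, −0.044 to 0.0085 for C1ql3, −0.37 to 0.0031 for Tdo2, −0.25 to 0.024 for Lct, −0.076 to 0.025 for Calb1 and −0.44 to 0.014 for Rfx2. Without the lowest-Ttr libraries C1ql3 was at 0.00044 and Rfx2 at 0.011, and with GC and length trends removed Calb1 was at 0.070 and Synpr at 0.020. In SUS_LE against SUS, Zbtb20 was at 0.0099 with limma voom, at 0.12 without the lowest-Ttr libraries (SUS_LE 2 alone) and at −0.10 to 0.047 with a library left out, and C1ql3 was at −0.0011 in SUS_LE 2 alone against SUS without the lowest-Ttr libraries. In SUS_LE against SED, leaving out 1 library gave −0.18 to 0.021 for Prox1, −0.14 to 0.20 for Dsp, −0.070 to 0.12 for C1ql2, −0.074 to 0.047 for Trpc6, −0.058 to 0.021 for Rfx7 and −0.025 to 0.41 for Gsg1l. Dsp was at −0.00041 in both forms of DESeq2, −0.00026 with DESeq2's size factors in edgeR and −0.00034 without a filter. With the choroid covariate C1ql2 was at −0.18 and Rfx7 at 0.030, in SUS_LE 2 alone, without the lowest-Ttr libraries, C1ql3 was at −0.00070 and Gsg1l at −0.11, and with GC and length trends removed Rfx7 was at 0.0070. The cause of these turns was not tested. Of 1716 alternative values, 1571 counted as unchanged, 41 reversed, 45 passed the threshold where edgeR had not and 59 moved. Values of single genes counted as unchanged if they kept their direction and side of the threshold. Counts had to stay close to the main fit, and medians and levels within the SD of libraries of a group. Depth limits Tdo2, Rfx2 and Plk5, which rest on under 100 counts per library.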

Other observations

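Several genes that differ along the long axis of the hippocampus were read beside the granule cell genes. The 6 genes were Lct, Gsg1l, Trhr, Wfs1, Dcn and Nr2f2. They summed to 264 to 304 CPM in SED, 321 to 342 CPM in SUS and 259 to 364 CPM in SUS_LE. In SUS against SED 2 of the 6 were higher (Gsg1l and Wfs1) and 4 lower, with a median of −0.065, so most did not share the higher sum. The list does not separate genes by the end of the axis they mark, so its sum and median give no position along it. Wfs1, the endoplasmic reticulum protein wolframin and a marker of CA1 pyramidal cells, had 1179, 1474 and 1055 counts across SED 1 to 3, 2021, 2118 and 1594 counts across SUS 1 to 3, and 1242, 1155 and 1795 counts across SUS_LE 1 to 3. Trhr, the receptor for thyrotropin-releasing hormone, was at 14.0, 11.0 and 11.2 CPM across SED 1 to 3, at 9.76, 10.7 and 11.2 CPM across SUS 1 to 3, and at 8.90, 9.87 and 13.8 CPM across SUS_LE 1 to 3. Within SUS_LE, SUS_LE 3 was the highest for Gsg1l, Wfs1 and Trhr and the lowest for Prox1, Dsp, C1ql2 and Lct, while for C1ql3 and Calb1 it was the highest of all 9 libraries. These values are given without a test and their relation was not tested. Trhr was chosen after its values were seen.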
